A study of Mus musculus with 12 samples.

Results

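The 10 genes described here carry glucose into muscle cells and break it down to pyruvate and lactate. They are the glucose transporter genes Slc2a1 and Slc2a4, the hexokinase gene Hk2, and the genes of 7 later enzymes, Pfkm, Aldoa, Gapdh, Pgk1, Eno3, Pkm and Ldha. They were chosen by name, for the reaction each protein carries out, and make up 10 of the 18530 genes in the deposited table. All 10 reached 1 TPM in every library, so all 10 were among the 12798 genes tested. TPM is a read number divided by gene length and put on the same total in every library.

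Poly-A RNA was sequenced from cardiomyocytes isolated from mouse hearts, in 4 groups of 3 libraries. The first group was mdx:Utrn+/- mice given PB1046, and the second was mdx:Utrn+/- mice given saline. The third was mdx mice given PB1046, and the fourth was mdx mice given saline. Mice of the mdx strain lack dystrophin, the protein that ties the cytoskeleton of muscle to the cell membrane, and mdx:Utrn+/- mice also carry a single working copy of Utrn, the gene of the related protein utrophin. PB1046 is a long-acting analog of vasoactive intestinal peptide, a hormone that raises cyclic AMP. Dosing ran on alternate days between weeks 4 and 12 of age, and hearts were taken at week 14, after dosing had ended. Treated mice are labelled as having had a high dose, which is read here as 1.5 mg/kg, the higher dose in the protocol. All 4 groups lack dystrophin, and no library of wild-type mice was analysed here.

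Glucose enters cardiomyocytes through carriers in the cell membrane. GLUT1, encoded by Slc2a1, is present at the surface at rest, whereas GLUT4, encoded by Slc2a4, is held in vesicles that move to the surface on insulin or contraction. Hexokinase traps the sugar as glucose-6-phosphate, phosphofructokinase commits it to glycolysis, and the later enzymes yield ATP, NADH and pyruvate, which lactate dehydrogenase exchanges with lactate. The adult heart runs mainly on fatty acids and also takes up lactate from the blood, and failing hearts are known for a shift towards glucose use.

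The libraries held 7234100 to 25458194 reads, recovered from the deposited TPM, and a single member rested on 130 to 95833 reads in a library. The labels do not say whether each library is a separate animal, so p-values measure the spread between these libraries, and the batch field of the labels repeats the group. Cardiomyocyte markers summed to 107392 to 148039 TPM in every library. The 10 skeletal muscle markers summed to 4009 to 5051 TPM, although 6 of them averaged under 1 TPM, so this sum came almost wholly from the rest. Libraries differed widely in the 15 endothelial markers, all detected, whose summed level spanned 1549 to 5081 TPM with PB1046 and 1273 to 1653 TPM with saline in mdx:Utrn+/-, and 1012 to 7474 TPM with PB1046 and 1482 to 3851 TPM with saline in mdx. In such bulk RNA, fewer cells of a type and less RNA per cell cannot be told apart.

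Glycolytic transcripts were abundant, and the muscle form led at almost every step that has more than one gene. Together the 10 genes made up 0.950% to 1.25% of all TPM in a library. On the TPM scale, which allows genes to be compared per length, the mean level over all 12 libraries was 2826 TPM for Aldoa, 2389 TPM for Gapdh, 1886 TPM for Eno3, 1218 TPM for Ldha, 872 TPM for Pkm, 599.7 TPM for Pgk1, 457 TPM for Pfkm, 355 TPM for Slc2a4, 87.2 TPM for Hk2 and 11.5 TPM for Slc2a1. The members thus span aldolase and glyceraldehyde phosphate dehydrogenase at the top and the carriers and hexokinase at the bottom. Each of these genes was above the next in 12 of 12 libraries, with 3 exceptions. Aldoa was above Gapdh in 11 libraries, Eno3 above Ldha in 10, and Pfkm above Slc2a4 in 9, so these neighbours do not separate beyond the spread of the libraries. Slc2a4 varied most, from 177 to 572 TPM, a 3.23-fold range, and Aldoa ranged from 2354 to 3363 TPM, a 1.43-fold range, the narrowest by this measure.

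**Figure D1:**
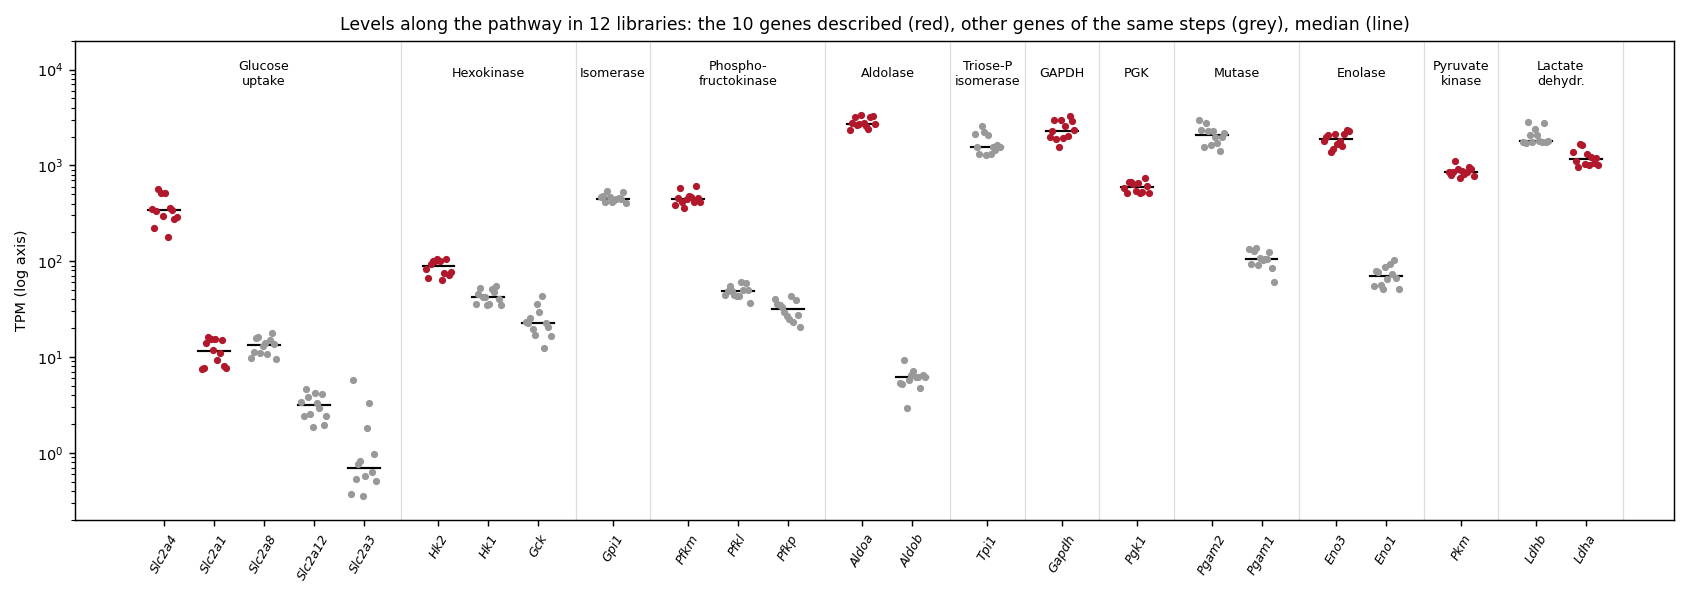
Level in TPM (vertical log axis) of the genes of each step of glucose uptake and glycolysis, 12 points per gene for the 12 libraries and a line for the median. The 10 genes described are in red and other genes of the same steps in grey. Aldoa and Gapdh sit highest, Slc2a1 lowest of the red genes, and Ldhb lies above Ldha.

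The steps with no member were also well filled. Glucose-6-phosphate isomerase Gpi1 averaged 458 TPM and triose phosphate isomerase Tpi1 1719 TPM over the 12 libraries, both means of all groups. The muscle phosphoglycerate mutase Pgam2 averaged 2094 TPM, against 106 TPM for the brain-type gene Pgam1. Aldoc, the brain aldolase, ranged from 0 to 0.472 TPM.

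Both carriers had their highest group mean in mdx:Utrn+/- saline. Slc2a1 (GLUT1; chr4:119108745-119137329, plus strand, mm10, as are all gene positions here) had 7.42, 7.64 and 13.9 TPM in mdx:Utrn+/- PB1046 libraries, against 16.1, 15.3 and 11.8 TPM in mdx:Utrn+/- saline libraries. In mdx it had 15.3, 9.32 and 11.01 TPM with PB1046 and 14.9, 8.12 and 7.65 TPM with saline. The mdx:Utrn+/- saline libraries were high as a set, 1 library of every other group reached the same level, and all groups overlapped. Slc2a4 (GLUT4; chr11:69942286-69948190, minus strand) had 350.3, 221 and 337 TPM in mdx:Utrn+/- PB1046 and 572, 513 and 299 TPM in mdx:Utrn+/- saline. In mdx, Slc2a4 had 521, 177 and 363 TPM with PB1046 and 344, 273 and 287 TPM with saline. The mdx PB1046 group alone held both the lowest Slc2a4 library of the series and its second highest, and no pair of groups was separate.

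Hk2, the insulin-responsive hexokinase of muscle (chr6:82725027-82774454, minus strand), had 83.5, 66.5 and 94.1 TPM in mdx:Utrn+/- PB1046, against 99.5, 101 and 107 TPM in mdx:Utrn+/- saline. All 3 PB1046 libraries of mdx:Utrn+/- lay under all 3 saline libraries. In mdx, Hk2 had 100.1, 63.9 and 75.7 TPM with PB1046 and 106, 72.0 and 76.5 TPM with saline, and these groups overlapped over nearly their whole range. Pfkm, the muscle phosphofructokinase at the committed step (chr15:98092589-98132447, plus strand), had 389.7, 452 and 587 TPM in mdx:Utrn+/- PB1046 and 411, 358 and 448 TPM in mdx:Utrn+/- saline. With PB1046 in mdx it had 474, 472 and 414 TPM, against 614, 452 and 418 TPM with saline. All 4 Pfkm groups overlapped, and the highest library was an mdx saline one.

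Aldoa, which splits the sugar diphosphate (chr7:126795234-126800447, minus strand), had 2354, 2751 and 3168 TPM in mdx:Utrn+/- PB1046 and 2667, 2699 and 3363 TPM in mdx:Utrn+/- saline. In mdx it had 2749.5, 2555 and 2422 TPM with PB1046 and 3215, 3272 and 2700.2 TPM with saline. The mdx groups met at one library each, since the highest PB1046 value exceeded only the lowest saline value. Gapdh, which oxidises glyceraldehyde phosphate (chr6:125161852-125166467, minus strand), had 1991, 2290.3 and 2946 TPM in mdx:Utrn+/- PB1046 and 1897, 1540.3 and 2978 TPM in mdx:Utrn+/- saline. In mdx, Gapdh had 1953, 2548 and 2009 TPM with PB1046 and 3301, 2893 and 2325 TPM with saline. Gapdh is often used as a constant reference gene, and here its highest library was 2.14-fold above its lowest, with overlap between all groups.

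Pgk1, the first ATP-yielding enzyme of the pathway (chrX:106187100-106203699, plus strand), had 587, 519 and 676 TPM in mdx:Utrn+/- PB1046 and 675, 640.3 and 536 TPM in mdx:Utrn+/- saline. In mdx it had 648, 512 and 531 TPM with PB1046 and 743, 614 and 515 TPM with saline, so that every group spanned most of the range of the others. Eno3, the muscle enolase (chr11:70657176-70662513, plus strand), had 1782, 1958 and 2087 TPM in mdx:Utrn+/- PB1046 and 1391, 1495 and 2106 TPM in mdx:Utrn+/- saline. Of all members it came closest to a difference between treatments in mdx, with 1653, 1801 and 1610.4 TPM with PB1046, against 2116, 2347 and 2289.8 TPM with saline. The 3 mdx saline libraries were the 3 highest of the 12, above all mdx PB1046 and all mdx:Utrn+/- libraries.

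Pkm, the pyruvate kinase gene of muscle (chr9:59656368-59679375, plus strand), had 845, 803 and 855 TPM in mdx:Utrn+/- PB1046 and 1109, 926 and 735 TPM in mdx:Utrn+/- saline. In mdx it had 879, 808 and 854 TPM with PB1046 and 967, 915 and 769 TPM with saline. The mdx:Utrn+/- saline group held both the highest and the lowest Pkm library. Ldha, the lactate dehydrogenase subunit that predominates in fast muscle (chr7:46845804-46855627, plus strand), had 1385, 1113 and 959 TPM in mdx:Utrn+/- PB1046 and 1664, 1647 and 1033 TPM in mdx:Utrn+/- saline. In mdx, Ldha had 1324, 1018 and 1213 TPM with PB1046 and 1048, 1208 and 1002 TPM with saline. The 2 highest Ldha libraries were mdx:Utrn+/- saline replicates 1 and 2, and the third replicate of that group lay among the lowest values.

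**Figure D2:**
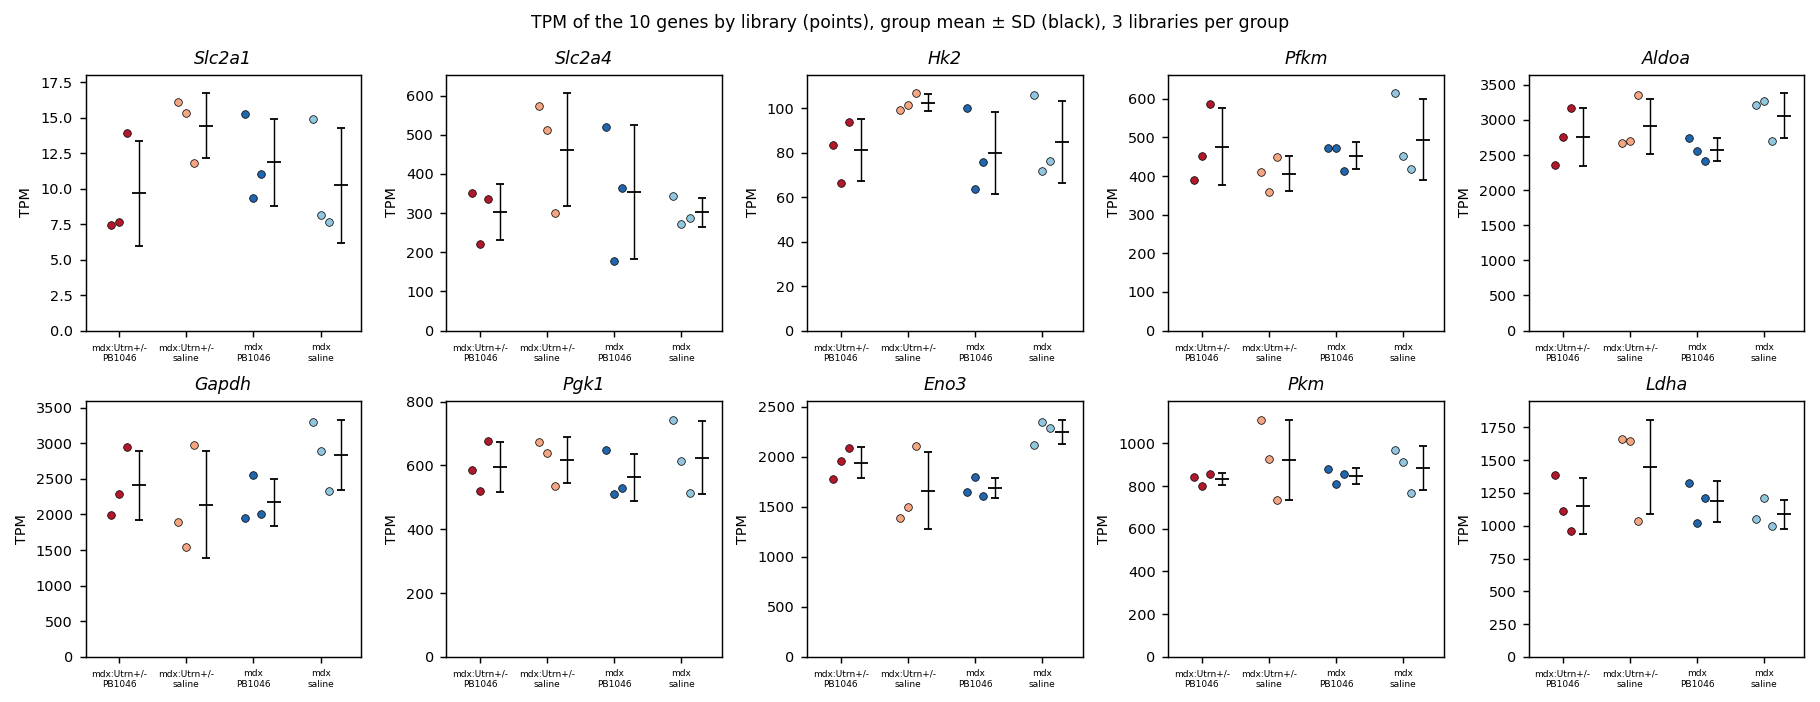
TPM (vertical axis from 0) of each of the 10 genes in each library (points), by group from mdx:Utrn+/- PB1046 on the left to mdx saline on the right, with the group mean and SD of 3 libraries in black. Eno3 is separate between the mdx groups and Hk2 between the mdx:Utrn+/- groups, and the other genes overlap there.

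The promoters of the members were read from RefSeq sequences on GRCm38.p6, where 9 of the 10 were matched. A window of 250 bases before the start was searched on both strands for ACGTG, the core of the hypoxia response element, CACGTG, an E-box that contains that core on each strand, GGGCGG, the GC box, TATAAA, the TATA box, and the MEF2 motif. ACGTG was found in 5 of 9 member windows, those of Slc2a1, Hk2, Pfkm, Pgk1 and Ldha, against 16.6% of 32851 promoter windows. CACGTG was in 2 of 9, those of Pfkm and Ldha, against 6.02%, and GGGCGG in 5 of 9, against 32.7%. TATAAA and the MEF2 motif were in 0 of 9, against 12.4% and 0.508%. The 9 windows describe these genes and support no statement on a factor. The windows of Gapdh and Pkm end just before RefSeq starts that lie 694 and 208 bases from the start in the deposited table. The Ldha window is shown because it holds the most matches, those of Pgk1 and Hk2 because after scaling these members moved most like the rest from library to library, and that of Eno3 because its mdx groups did not overlap and its window holds none of these motifs. Capitals mark ACGTG or its reverse complement CACGT, merged where the matches overlap.
Ldha promoter, chr7:46845554-46845803, plus strand: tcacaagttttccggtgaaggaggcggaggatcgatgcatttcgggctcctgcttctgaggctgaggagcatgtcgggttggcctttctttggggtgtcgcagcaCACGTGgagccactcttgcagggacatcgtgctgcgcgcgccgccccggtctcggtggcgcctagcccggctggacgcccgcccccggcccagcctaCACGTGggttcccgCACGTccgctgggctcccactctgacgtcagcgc
Pgk1 promoter, chrX:106186850-106187099, plus strand: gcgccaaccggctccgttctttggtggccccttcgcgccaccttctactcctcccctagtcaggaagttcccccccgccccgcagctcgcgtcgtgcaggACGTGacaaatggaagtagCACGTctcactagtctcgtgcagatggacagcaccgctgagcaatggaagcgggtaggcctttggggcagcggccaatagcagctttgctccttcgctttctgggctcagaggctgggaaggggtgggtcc
Hk2 promoter, chr6:82774455-82774704, minus strand: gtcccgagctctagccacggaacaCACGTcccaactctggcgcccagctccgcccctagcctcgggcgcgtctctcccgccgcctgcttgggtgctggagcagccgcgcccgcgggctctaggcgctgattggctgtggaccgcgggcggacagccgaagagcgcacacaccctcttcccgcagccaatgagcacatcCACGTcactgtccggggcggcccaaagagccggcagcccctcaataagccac
Eno3 promoter, chr11:70656926-70657175, plus strand: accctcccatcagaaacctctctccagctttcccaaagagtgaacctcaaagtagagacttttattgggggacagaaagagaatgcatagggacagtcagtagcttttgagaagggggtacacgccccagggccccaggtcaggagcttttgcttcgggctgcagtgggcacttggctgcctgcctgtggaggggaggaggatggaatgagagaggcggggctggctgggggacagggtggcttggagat
Counted on each strand, the core occurred 5 times in the Ldha window, 2 times in those of Pgk1 and Hk2 and 0 times in that of Eno3. The share of G and C was 67.2%, 62.8%, 69.6% and 57.2% in these windows.

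Whether PB1046 or the Utrn genotype moved these genes was tested with limma on log2(TPM + 1), after each library was divided by a trimmed-mean scaling factor of 0.828 to 1.31. The fit used all 12 libraries and all 12798 genes tested, with Benjamini-Hochberg adjustment over all of them and a threshold of 0.05. Log2 differences are on this log2(scaled TPM + 1) scale, which understates changes of low genes, and intervals are 95%.

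With PB1046 in mdx, 9 of the 10 members had lower scaled values, but none passed the test. In limma 0 of 10 members had an adjusted p under 0.05, as did 0 of 12798 genes (0%), and limma-voom on the recovered reads also called 0. At an unadjusted p under 0.05 there were 394 genes (3.08%) in limma and 430 in limma-voom, of which 1 member in each. Log2 differences were below 0 for 9 of 10 members, with a median of -0.26, against a median of -0.00 over all genes tested. In limma that 1 member was Eno3, with 1688 ± 99.8 TPM with PB1046 and 2251 ± 121 TPM with saline (SD, n = 3 each). Its log2 difference was -0.58 (SE 0.22, interval -1.06 to -0.10, limma adjusted p = 0.999). Of the other enzymes in the middle of the pathway, Gapdh had a log2 difference of -0.55 (interval -1.16 to 0.06, limma adjusted p = 0.999) and Aldoa one of -0.41 (interval -0.91 to 0.09, limma adjusted p = 0.999). Pgk1, Pfkm, Hk2 and Pkm had -0.30, -0.27, -0.25 and -0.22, and Slc2a1, Slc2a4 and Ldha had 0.08, -0.06 and -0.04. On the deposited TPM, Eno3 was the 1 member of 10 whose PB1046 libraries were all below the saline libraries, as were 2.06% of genes tested, while 6.56% were all above. After scaling, Gapdh was separate as well, and the share of all genes separate after scaling was not counted.

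The median of the members in mdx rested in part on a single library. Without mdx PB1046 replicate 1 it was -0.56, and over all 12 ways of leaving out a library it ranged from -0.56 to -0.17. In that PB1046 library the endothelial markers summed to 1012 TPM, against 4349 and 7474 TPM in the other PB1046 libraries of mdx. Cardiomyocyte markers leaned like the members in this contrast, and markers of several other cell types leaned the other way. Of the 15 cardiomyocyte markers 14 had a log2 difference below 0, with a median of -0.33, and their summed level was 107392 to 144060 TPM with PB1046 and 136259 to 139993 TPM with saline. Fibroblast markers were above 0 in 11 of 12 (median 0.48), macrophage markers in 11 of 11 (median 0.44) and pericyte and smooth muscle markers in 9 of 10 (median 0.46). Erythroid markers were above 0 in 5 of 5 (median 1.91), and atrial markers below 0 in 5 of 5 (median -0.19). Summed fibroblast markers were 703 to 1857 TPM with PB1046 and 372 to 1222 TPM with saline, and the part of these cell types in the members' values was not tested. Of the 15 endothelial markers, 7 were above 0 and 8 below, with a median of -0.01. With the endothelial score as a term in the fit the median of the members was -0.25 and the log2 difference of Eno3 was -0.57 (limma adjusted p = 0.883).

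With PB1046 in mdx:Utrn+/-, the carriers, Hk2 and Ldha were lower, without a call, and Eno3, Pfkm and Gapdh had log2 differences near 0. No member of 10 and no gene of 12798 (0%) had a limma adjusted p under 0.05, and limma-voom called 0. Unadjusted p under 0.05 was found for 251 genes (1.96%) in limma and 208 in limma-voom, with 0 members in either. Log2 differences were below 0 for 7 of 10 members, with a median of -0.29, against -0.01 over all genes tested. Slc2a1 averaged 9.66 ± 3.69 TPM with PB1046 and 14.4 ± 2.29 TPM with saline (SD, n = 3 each), a log2 difference of -0.75 (SE 0.35, interval -1.52 to 0.03, limma adjusted p = 0.998). For Slc2a4 the means were 303 ± 71.1 TPM with PB1046 and 462 ± 144 TPM with saline (SD, n = 3 each), a log2 difference of -0.77 (interval -1.78 to 0.25, limma adjusted p = 0.998). Hk2 averaged 81.4 ± 13.9 TPM with PB1046 and 103 ± 3.72 TPM with saline (SD, n = 3 each), with -0.53 (interval -1.20 to 0.15, limma adjusted p = 0.998), and Ldha had -0.50 (interval -1.15 to 0.16, limma adjusted p = 0.998). Pkm, Aldoa and Pgk1 had -0.31, -0.26 and -0.24. Eno3 had 0.06 (interval -0.42 to 0.54), and Pfkm and Gapdh had 0.03 and 0.02. The 5 members whose promoter windows hold the ACGTG core, Slc2a1, Hk2, Pfkm, Pgk1 and Ldha, ran from -0.75 to 0.03, and the 4 matched members without it from -0.31 to 0.06. For PB1046 in mdx the lean was the other way, with -0.30 to 0.08 for members with the core and -0.58 to -0.22 for those without. A link between the core and these differences was not tested. Hk2 was the 1 member of 10 whose deposited TPM did not overlap, all lower with PB1046, as for 1.06% of genes tested, against 5.14% all higher.

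Endothelial markers moved in the opposite direction to most members in this contrast. All 15 had a log2 difference above 0 for PB1046 in mdx:Utrn+/-, with a median of 0.56, and with their score as a term the median of the members became -0.10 and the differences of Slc2a1, Slc2a4 and Hk2 became -0.41, -0.35 and -0.22. Their part in the result was not tested beyond that fit. Cardiomyocyte markers were below 0 in 11 of 15 (median -0.12), fibroblast markers in 12 of 12 (median -0.30) and macrophage markers in 11 of 11 (median -0.51). Atrial markers were below 0 in 5 of 5 (median -0.85), and erythroid markers above 0 in 5 of 5 (median 0.70).

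Between genotypes under saline, the carriers, Hk2 and Ldha had higher values in mdx:Utrn+/- than in mdx, without any call. In limma 0 of 10 members and 0 of 12798 genes (0%) passed at an adjusted p of 0.05, and limma-voom called 0. At an unadjusted p under 0.05 there were 515 genes (4.02%) in limma and 472 in limma-voom, with 0 members in limma and 1 in limma-voom. Log2 differences were above 0 for 7 of 10 members, with a median of 0.29, against 0.03 over all genes tested. Ldha averaged 1448 ± 359.8 TPM in mdx:Utrn+/- and 1086 ± 108 TPM in mdx (SD, n = 3 each), a log2 difference of 0.65 (SE 0.30, interval -0.00 to 1.303, limma adjusted p = 0.854). Slc2a1 had 0.75 (interval -0.02 to 1.52, limma adjusted p = 0.854), Slc2a4 0.83 (interval -0.18 to 1.84, limma adjusted p = 0.854) and Hk2 0.55 (interval -0.13 to 1.23, limma adjusted p = 0.854). Eno3 and Gapdh had -0.19 and -0.19. On the deposited TPM, Eno3 was the 1 member of 10 without overlap, all mdx:Utrn+/- libraries below all mdx ones, as for 15.1% of genes tested, against 0.703% all above. The gap was between 2106 TPM in mdx:Utrn+/- and 2116 TPM in mdx and closed after scaling. Hk2 and Ldha then became separate, both higher in mdx:Utrn+/-. The shares of all genes given here are for the deposited TPM and do not apply after scaling, where none was counted. This contrast and the mdx:Utrn+/- PB1046 contrast share the mdx:Utrn+/- saline libraries. All 15 endothelial markers had a log2 difference below 0 here, with a median of -0.60, and with their score as a term the median of the members was 0.04. Cardiomyocyte markers were above 0 in 11 of 15 (median 0.20) and macrophage markers in 11 of 11 (median 0.39). Erythroid markers were above 0 in 5 of 5 (median 1.27), and atrial markers below 0 in 4 of 5 (median -0.67).

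Under PB1046, the middle enzymes were higher in mdx:Utrn+/- than in mdx by small margins, again without a call. In limma 0 of 10 members and 0 of 12798 genes (0%) passed, and limma-voom called 0. An unadjusted p under 0.05 was found for 212 genes (1.66%) in limma and 227 in limma-voom, with 0 members in either. Log2 differences of mdx:Utrn+/- minus mdx were above 0 for 9 of 10 members, with a median of 0.29, against 0.01 over all genes. Eno3 averaged 1942 ± 153 TPM in mdx:Utrn+/- and 1688 ± 99.8 TPM in mdx (SD, n = 3 each), with the largest log2 difference of the members, 0.45 (SE 0.22, interval -0.04 to 0.93, limma adjusted p = 1.00). Gapdh, Aldoa and Pgk1 had 0.39, 0.33 and 0.32, and Slc2a1 had -0.08. None of the 10 members was without overlap on the deposited TPM, against 6.33% of genes tested all lower and 0.922% all higher. Cardiomyocyte markers were above 0 in 15 of 15, with a median of 0.34, next to the 0.29 of the members. Fibroblast markers were below 0 in 12 of 12 (median -0.71), macrophage markers in 11 of 11 (median -0.54) and pericyte and smooth muscle markers in 9 of 10 (median -0.45). Atrial markers were below 0 in 4 of 5 (median -1.40), and erythroid markers in 4 of 5 (median -0.01). The part of these cell types in the members' values was not tested.

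**Figure D3:**
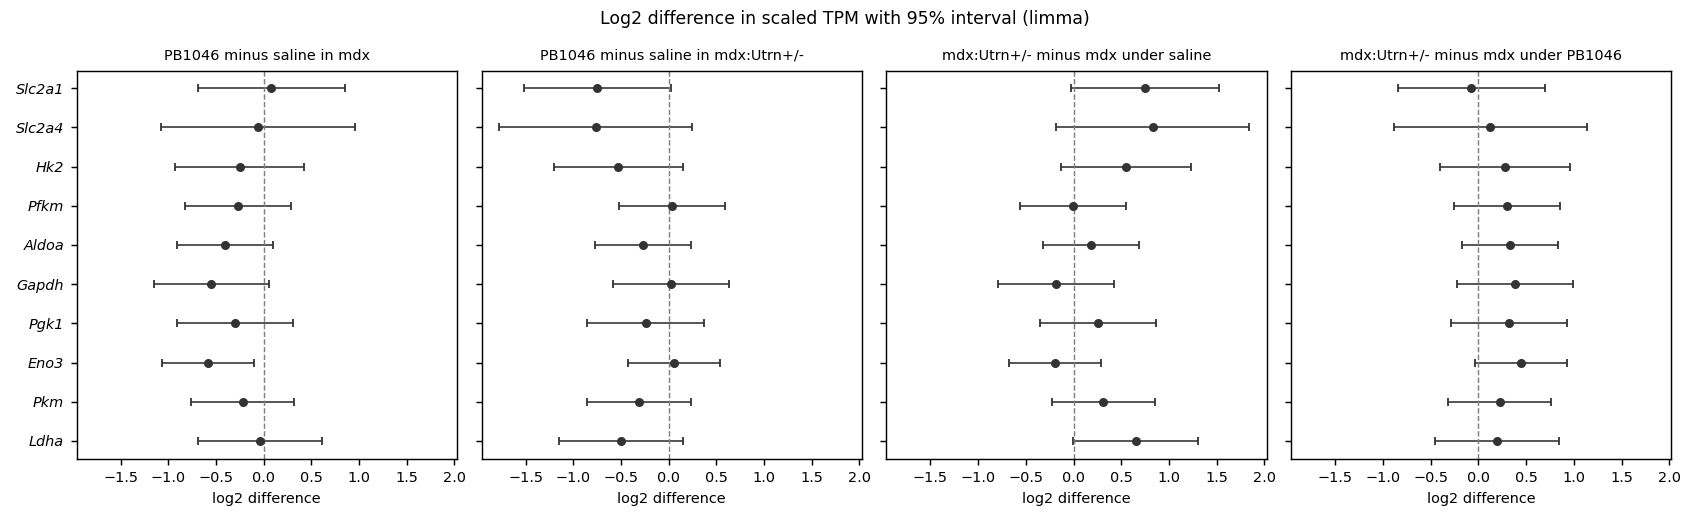
Log2 difference in scaled TPM (horizontal axis) with its 95% interval from limma for the 10 genes (rows) in the 4 pairwise contrasts (panels), with a dashed line at 0. The interval of Eno3 for PB1046 in mdx is the only one of the 40 that leaves out 0.

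Averaged over genotypes, all 10 members had a log2 difference below 0 for PB1046, between -0.41 for Slc2a4 and -0.12 for Pfkm. In limma 0 members and 0 genes (0%) passed, with 318 genes (2.48%) at an unadjusted p under 0.05, and limma-voom called 0 with 332. Averaged over treatments, all 10 were above 0 for mdx:Utrn+/-, between 0.10 for Gapdh and 0.48 for Slc2a4. Here too limma called 0 members and 0 genes (0%), with 468 genes (3.66%) at an unadjusted p under 0.05, and limma-voom called 0 with 432. The intervals that came closest to leaving out 0 were those of Aldoa for PB1046, with -0.34 (interval -0.69 to 0.02), and of Ldha between genotypes, with 0.42 (interval -0.04 to 0.88). Of the 15 endothelial markers, 14 were above 0 for PB1046 and 15 below 0 for mdx:Utrn+/- in these averages, and with their score as a term the member medians of -0.27 and 0.28 became -0.17 and 0.13. Cardiomyocyte markers leaned like the members, with 14 of 15 below 0 for PB1046 (median -0.24) and 15 of 15 above 0 for mdx:Utrn+/- (median 0.33). Atrial markers had medians of -0.50 for PB1046 and -1.03 for mdx:Utrn+/-, and erythroid markers 1.32 and 0.68. The uniform direction depended on the scaling factor. Without it, 9 of 10 members were lower with PB1046 and 7 of 10 higher in mdx:Utrn+/-, with member medians of -0.10 and 0.02, while the median of all genes moved to 0.14 and -0.21.

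The PB1046 responses of the genotypes were compared with an interaction term. Eno3 had the smallest p of the members, with a log2 difference between responses of 0.64 (SE 0.31, interval -0.04 to 1.32, limma adjusted p = 0.999). Gapdh had 0.57 (interval -0.29 to 1.43), and at the other end Slc2a1 had -0.83 (interval -1.92 to 0.27) and Slc2a4 -0.71 (interval -2.14 to 0.73). In limma 0 of 10 members and 0 of 12798 genes (0%) passed, with 288 genes (2.25%) at an unadjusted p under 0.05, and limma-voom called 0 with 275. Of the members 5 had a difference above 0 and 5 below, with a median of -0.01, which was 0.20 with the endothelial score as a term, so the carriers and hexokinase on one side and the middle enzymes on the other were not shown to respond differently between genotypes. In the same contrast all 15 endothelial markers were above 0 (median 0.40), and all 12 fibroblast markers (median -0.68) and all 11 macrophage markers (median -0.92) below.

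After scaling, the 10 genes moved together from library to library. The Pearson r of each member with the mean of the other 9, over the 12 libraries, ran from 0.44 for Gapdh and 0.49 for Eno3 to 0.97 for Hk2 and 0.97 for Pgk1. All 10 lay below their own mean in mdx:Utrn+/- PB1046 replicate 2 and in mdx PB1046 replicates 2 and 3, as did 9 in mdx saline replicate 3 and 7 in mdx saline replicate 2. These same 5 libraries had the 5 highest endothelial sums, 2931 to 7474 TPM, against 1012 to 1881 TPM in the other 7, and the 5 highest scaling factors, 1.01 to 1.31. They were also the 5 libraries with a cardiomyocyte marker score (mean of the markers' centred scaled log2 values) below 0, from -0.69 to -0.08, against 0.14 to 0.38 in the other 7. On the deposited TPM, 8, 8, 8, 9 and 4 members lay below their own mean in these libraries, in the order given. The likeness between members was lower there, with an r of 0.89 for Pgk1 and 0.81 for Hk2 but 0.05 for Ldha, -0.06 for Gapdh and -0.28 for Eno3. The part of endothelial or cardiomyocyte RNA in the shared movement was not tested, and library composition and the scaling factor cannot be told apart here.

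**Figure D4:**
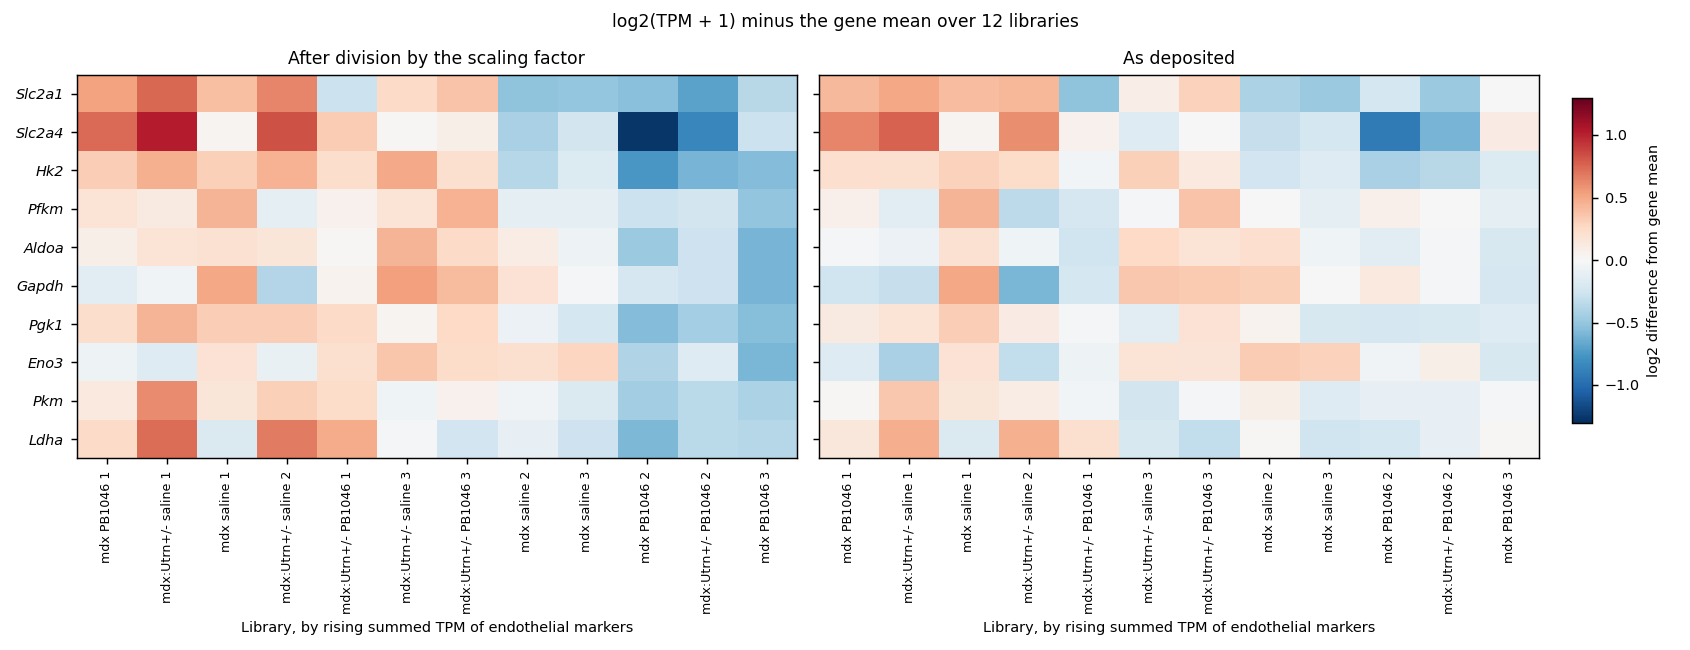
Log2(TPM + 1) minus the mean of the gene over 12 libraries (colour, red higher and blue lower), for the 10 genes (rows) and 12 libraries ordered from left to right by rising summed TPM of endothelial markers (columns), after scaling (left) and as deposited (right). The 5 libraries at the right are mostly blue after scaling. As deposited, 4 of these 5 are still mostly blue, with paler colours for several genes.

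A second division of the libraries, at a cut chosen from these values, ran across the groups for Ldha and Gapdh. Ldha and Gapdh did not overlap between the libraries with the 4 lowest library numbers and the other 8. All other members overlapped, Slc2a4 in part. The labels do not give the meaning of these numbers. These 4 were the first replicates of mdx:Utrn+/- PB1046, mdx:Utrn+/- saline and mdx PB1046, and the second replicate of mdx:Utrn+/- saline, so 3 of them are mdx:Utrn+/- and none is mdx saline. Ldha was 1324 to 1664 TPM in the 3 lowest and 1647 TPM in the fourth, against 959 to 1213 TPM in the other 8. Slc2a4 was 350.3 to 572 TPM in the 3 lowest and 513 TPM in the fourth, against 177 to 363 TPM in the other 8, and so overlapped. Gapdh was 1897 to 1991 TPM in the 3 lowest and 1540.3 TPM in the fourth, against 2009 to 3301 TPM in the other 8. The triose phosphate isomerase gene Tpi1 divided like Ldha, with 2073 to 2578 TPM and 2241 TPM, against 1290 to 1632 TPM. The division was seen in the values first and is given with no test. Its cut at 4 libraries was set by the values as well. With the 3 lowest numbers set against all the rest, Ldha, Gapdh, Slc2a4 and Tpi1 all overlapped. The share of all genes that divide in this way was not counted. With a term for the 3 lowest numbers the log2 difference of Ldha between genotypes under saline was 0.44, that of Slc2a4 was 0.52, and the median of the members was 0.14. That term leaves the fourth library, mdx:Utrn+/- saline replicate 2, on the other side. It therefore does not account for the division of 4 libraries.

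Within a library, the member outweighed the relative it was set against in 4 of 5 ratios, by factors of 1.26 to 47.2. Such ratios are free of the scaling factor. Slc2a4 was 19.0 to 47.2 times Slc2a1 over the 12 libraries, Pfkm 4.54 to 7.27 times the sum of the liver and platelet genes Pfkl and Pfkp, and Eno3 19.3 to 44.3 times the widely expressed enolase Eno1. Eno1 shares reads with the entry Eno1b, so its level may be understated and the size of the Eno3/Eno1 ratio is uncertain. Hk2 was 1.26 to 3.04 times the constitutive hexokinase Hk1. The exception was Ldha, at 0.336 to 0.950 times the heart subunit Ldhb, which was higher in 12 of 12 libraries. Ldhb averaged 2036 TPM over the 12 libraries. The other carriers of the family were scarce next to GLUT4, with means of 13.2 TPM for Slc2a8, 3.13 TPM for Slc2a12 and 1.37 TPM for Slc2a3.

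The largest treatment difference among the ratios was in Hk2/Hk1. It was 2.35, 1.46 and 1.78 in mdx:Utrn+/- PB1046, against 2.37, 2.40 and 3.04 in mdx:Utrn+/- saline, with no overlap and a gap between 2.35 and 2.37. In mdx it was 2.80, 1.26 and 1.57 with PB1046 and 1.93, 1.79 and 2.22 with saline, with overlap. Averaged over genotypes the log2 ratio was lower by 0.33 with PB1046 (exact two-sided permutation test within genotype, p = 0.145, adjusted p = 0.875 over 10 tests), where 0.005 is the smallest p possible. This difference depended on 1 library. Without mdx PB1046 replicate 1 it was -0.49 with an exact permutation p of 0.005, an alternative added after the values were seen. Between genotypes it was then 0.38 with an exact permutation p of 0.035, against 0.22 with all libraries. Both p are unadjusted and come from 1 of 12 ways of leaving out a library. The library left out had the lowest endothelial sum, 1012 TPM. The lowest ratios, 1.26, 1.46 and 1.57, were in PB1046 libraries with 4349, 5081 and 7474 TPM, and mdx saline replicate 3 had 2.22 at 3851 TPM. The part of endothelial RNA in this ratio was not tested. The other 9 tests, of 5 ratios for treatment and genotype, had exact permutation p of 0.305 to 0.925.

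**Figure D5:**
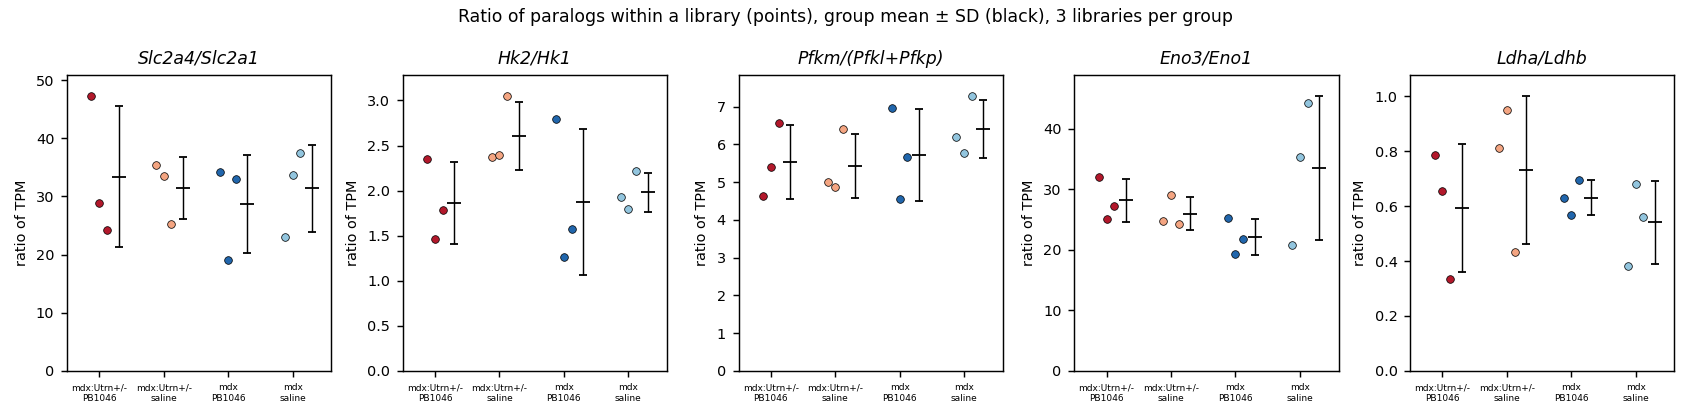
Ratio of TPM between paralogs (vertical axis from 0) in each library (points), by group, with the group mean and SD of 3 libraries in black. The 3 Hk2/Hk1 values of mdx:Utrn+/- PB1046 are all below those of mdx:Utrn+/- saline, and every Ldha/Ldhb value is under 1.

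Around the members, 96 further genes of glucose transport, glycolysis, its regulators, pyruvate and lactate handling and glycogen were listed, of which 84 were tested. In limma 0 of the 84 passed in any of the 7 contrasts. For PB1046 in mdx, 41 had a log2 difference above 0 and 43 below, with a median of -0.01, and in mdx:Utrn+/- 35 were above and 49 below, with a median of -0.07. Between genotypes 65 were above and 19 below under saline, with a median of 0.16, and 62 above and 22 below under PB1046, with a median of 0.10. The members' medians of -0.26, -0.29, 0.29 and 0.29 in the same 4 contrasts were farther from 0 than these pooled medians. Single lists came closer. Between genotypes under saline the median was 0.28 for the other glycolysis enzymes, 0.27 for the pyruvate and lactate genes and 0.24 for the glycogen genes. It was 0.16 for the transport genes and 0.01 for the regulators. Under PB1046 these medians were 0.21, 0.11, 0.16, 0.04 and 0.01, in the same order. Between genotypes the other glycolysis enzymes were above 0 in 15 of 16 under saline and 14 of 16 under PB1046, the glycogen genes in 16 of 18 and 15 of 18, the pyruvate and lactate genes in 14 of 18 and 13 of 18, the transport genes in 10 of 13 and 10 of 13, and the regulators in 10 of 19 and 10 of 19. Over all genes tested, 53.4% were above 0 under saline and 52.3% under PB1046.

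An unadjusted limma p under 0.05 was found for 1 to 5 of these 84 genes in a contrast. The share was 5.95% for PB1046 in mdx, 1.19% for PB1046 in mdx:Utrn+/-, and 5.95% and 1.19% for genotype under saline and PB1046. It was 5.95% for PB1046 and 4.76% for genotype in the averages, and 2.38% for the interaction. In the same order, the shares of all genes tested were 3.08%, 1.96%, 4.02%, 1.66%, 2.48%, 3.66% and 2.25%. Described here are 4 of these pathway genes, for their known roles, and none passed after adjustment. Pdk4, the kinase that shuts off pyruvate dehydrogenase and so spares glucose, had 204, 156 and 189 TPM in mdx:Utrn+/- PB1046 and 230.2, 69.0 and 31.5 TPM in mdx:Utrn+/- saline. In mdx it had 304, 296 and 100.3 TPM with PB1046 and 151, 23.4 and 31.4 TPM with saline. Saline libraries ran from low to high in both genotypes, and averaged over genotypes the log2 difference was 1.46 (SE 0.58, interval 0.21 to 2.72, limma adjusted p = 1.00). Txnip, which promotes removal of GLUT1 and GLUT4 from the membrane, averaged 199 ± 53.4 TPM in mdx:Utrn+/- PB1046, against 222 ± 49.4 TPM in mdx:Utrn+/- saline (SD, n = 3 each). In mdx it averaged 238 ± 95.4 TPM with PB1046 and 303 ± 63.0 TPM with saline (SD, n = 3 each), and its average log2 difference was -0.46 (interval -0.85 to -0.07, limma adjusted p = 1.00). Hif1a, whose protein activates glycolysis genes in low oxygen, had a log2 difference of -0.59 for PB1046 in mdx (interval -1.10 to -0.08, limma adjusted p = 0.999) and -0.58 for mdx:Utrn+/- under saline (interval -1.09 to -0.07, limma adjusted p = 0.854). Pfkfb3, which makes the activator of phosphofructokinase, had -0.72 for mdx:Utrn+/- averaged over treatments (interval -1.32 to -0.13, limma adjusted p = 0.858), on group means of 2.49, 1.96, 6.80 and 4.38 TPM in mdx:Utrn+/- PB1046, mdx:Utrn+/- saline, mdx PB1046 and mdx saline. It had 4.12 TPM in mdx:Utrn+/- PB1046 replicate 2, 9.23 and 9.05 TPM in mdx PB1046 replicates 2 and 3, and 4.17 and 6.63 TPM in mdx saline replicates 2 and 3. These libraries had the highest endothelial sums, and the highest Pfkfb3 value elsewhere was 2.33 TPM. The part of endothelial RNA in this difference was not tested.

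Outside the pathway, the genes whose scaled log2 level was most like the mean of the 10 members over the 12 libraries were Mrpl16, Atp6v1d, Deb1, Pex10 and Pccb, with a Pearson r of 0.97 to 0.99. These r share the scaling factor and the libraries, and are given as a description.

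In the authors' deposited table, whose log2 fold changes run from the first named group to the second (saline minus PB1046, and mdx minus mdx:Utrn+/-), no gene had a false discovery rate under 0.05 in any of the 6 comparisons. For Eno3 that table gives 0.56 for mdx saline over mdx PB1046 (p-value 0.0557, false discovery rate 1). For Slc2a1 it gives 0.74 for mdx:Utrn+/- saline over mdx:Utrn+/- PB1046 (p-value 0.0542, false discovery rate 1). In the authors' deposited table Slc2a4 has -0.87 for mdx saline over mdx:Utrn+/- saline (p-value 0.0433, false discovery rate 0.935).

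Reads of some members can be uncertain. Exons of Slc2a1, Pfkm, Aldoa and Pkm overlap exons of 1, 2, 1 and 1 other annotated genes, and processed copies named after the gene are annotated for Aldoa, Gapdh, Pgk1 and Ldha, 4, 2, 3 and 2 in number. The kit marks strand, but whether the authors counted by strand is not given in the sources used here. Eno1b was at 0.524 to 0.539 times Eno1 in every library, and their recovered reads differed by less than 5% in 12 of 12, so these entries share reads.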

How the data were processed

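Poly-A RNA of isolated cardiomyocytes was measured in 12 libraries, grouped by the labels into 4 groups of 3. The deposited table holds TPM, although it is named as raw counts: the values are not whole and every library has the same sum. The submitters' processing notes name mm10 and edgeR, with no version. For the aligner and the counter, the names were not given in the sources used here. The authors' deposited columns also hold a log2 fold change, log2 CPM, score (likelihood ratio) and p-value with its q-value for each comparison, per the file headers.

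TPM were scaled by a trimmed mean of log ratios (30% of log ratios and 5% of levels trimmed), put on log2(TPM + 1) and fitted with limma 3.58.1 (R 4.3.3, trend and robust moderation) for genes that reached 1 TPM in 3 or more libraries, with a mean per group, 8 residual degrees of freedom and 7 contrasts. The script was tested on simulated data. Whole reads were recovered within 0.1 reads for 100% of 18530 genes and used for depth and limma-voom only; called genes were 0 in every contrast. Paralog ratios, added after the values were seen, were tested by exact permutation within genotype or treatment (400 relabelings). Python 3.11.15 with numpy 2.4.6, scipy 1.17.1, pandas 2.3.3 and matplotlib 3.10.9 gave the other values. Named genes were all members, their paralogs, the steps with no member, the pathway genes with the smallest p per contrast, and the 5 genes most like the members (the genes most unlike them are not reported here); 4 of those pathway genes are described, a choice made with their values known. The members, lists and tests were chosen with earlier results of these data known. Alternatives were another pseudocount (0.1), no filter, no scaling, limma-voom, an endothelial term, a replicate block, leaving out each library and, added after the data were seen, the 3 lowest library numbers as a term or left out.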

Additional observations from a re-analysis of the deposited data

How the results depend on the processing

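Under a pseudocount of 0.1, no filter, limma-voom and the replicate block, no result changed direction or call. With the replicate block 0 genes and 0 members were called in each of the 7 contrasts, and the member medians of the 4 pairwise contrasts were -0.26, -0.29, 0.29 and 0.29, as without it. Libraries that share a replicate number deviated together in 5 of 18 pairs (r over 0.1, range -0.44 to 0.49), against 12 of 36 pairs with different numbers. The numbers thus gave no sign of pairing, though this count cannot exclude it. Signs turned for small log2 differences, all far from the threshold, and the cause was not tested. Without scaling these were 0.10 for Slc2a4 and 0.12 for Ldha (PB1046 in mdx), -0.077 for Aldoa and -0.0066 for Pgk1 (genotype under saline), -0.12 for Slc2a4, -0.022 for Pkm and -0.049 for Ldha (genotype under PB1046), 0.055 for Pfkm (PB1046, averaged), and -0.11 for Pfkm, -0.15 for Gapdh and -0.13 for Eno3 (genotype, averaged). With the endothelial term they were Pgk1 at 0.044 (PB1046 in mdx:Utrn+/-) and -0.057 (genotype under saline), and Hk2 at 0.014 and Pkm at 0.11 (interaction). With the term for the 3 lowest library numbers they were Slc2a1 at -0.048 (PB1046 in mdx) and Pkm at 0.067 (interaction). Without those 3 libraries they were Slc2a1 at -0.26 (PB1046 in mdx) and 0.31 (genotype under PB1046), Eno3 at -0.043 (PB1046 in mdx:Utrn+/-) and Pkm at 0.19 (interaction); the log2 ratio differences between genotypes of Slc2a4/Slc2a1, Pfkm/(Pfkl+Pfkp) and Ldha/Ldhb became -0.00091, 0.020 and -0.066; the member median for PB1046 in mdx was -0.58; and the log2 ratio of Hk2/Hk1 had a PB1046 difference of -0.62.

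Leaving out 1 library at a time, members called stayed at 0 and genes called at 0 in all contrasts but the interaction, where they ranged from 0 to 1 (without mdx:Utrn+/- saline replicate 3 the pseudogene Tmem181b-ps, named after its value was seen, was called). The member median ranged from -0.56 to -0.17 for PB1046 in mdx, -0.42 to -0.10 in mdx:Utrn+/-, 0.19 to 0.43 for genotype under saline, 0.17 to 0.51 under PB1046, and -0.16 to 0.27 for the interaction. Log2 differences whose sign turned had these ranges. For PB1046 in mdx:Utrn+/- they were -0.038 to 0.23 (Eno3), -0.19 to 0.27 (Gapdh), -0.15 to 0.23 (Pfkm) and -0.36 to 0.027 (Pgk1). For PB1046 in mdx they were -0.28 to 0.064 (Ldha), -0.25 to 0.33 (Slc2a1) and -0.56 to 0.37 (Slc2a4). For genotype under saline they were -0.44 to 0.024 (Gapdh) and -0.10 to 0.10 (Pfkm), and averaged -0.025 to 0.21 (Gapdh). For genotype under PB1046 they were -0.064 to 0.44 (Ldha), -0.36 to 0.25 (Slc2a1) and -0.34 to 0.62 (Slc2a4). For the interaction they were -0.42 to 0.087 (Hk2), -0.055 to 0.38 (Pgk1) and -0.26 to 0.16 (Pkm). Among log2 ratios, genotype ranges were -0.13 to 0.14 (Eno3/Eno1), -0.011 to 0.30 (Ldha/Ldhb) and -0.028 to 0.21 (Slc2a4/Slc2a1), and PB1046 ranges -0.20 to 0.15 (Ldha/Ldhb), -0.15 to 0.00050 (Pfkm/(Pfkl+Pfkp)) and -0.19 to 0.084 (Slc2a4/Slc2a1).

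With 3 libraries a group, the SE of a member was as large as 0.46 on the log2 scale in a pairwise contrast, so moderate differences of these genes were not detectable here, and absence of a call does not show equal levels.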
